A study of Mus musculus with 4 samples.

Results

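A secreted Wnt protein acts on a cell through a Frizzled receptor at the surface, and for the beta-catenin branch also through a co-receptor of the LDL receptor-related protein (LRP) family. Before a Wnt can leave the cell that makes it, the enzyme porcupine, encoded by Porcn, attaches a lipid to it, and the carrier protein Wntless, encoded by Wls, takes it to the cell surface. In hair follicles, Wnt signals are known for starting the growth of a follicle and for the activation of its stem cells. The 10 genes described here are 6 Frizzled receptors (Fzd1, Fzd2, Fzd3, Fzd5, Fzd6 and Fzd7), both LRP co-receptors of the pathway (Lrp5 and Lrp6) and both secretion genes (Wls and Porcn). They were taken by gene symbol from the 24346 symbols of the series, and each was found as 1 row in all 4 libraries. The question was whether cells with raised Wnt ligands carry the transcripts needed to secrete and to receive them.

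RNA was sequenced from hair follicle stem cells (HFSCs) of C3H/HeN mice, with 2 libraries after 10 passages (10p-HFSCs) and 2 after 48 passages (48p-HFSCs). Per the methods of the study, cells positive for CD49f and CD34 were sorted from dorsal skin of 4-week-old mice and grown without serum or feeder cells in the medium M-CnT (CnT-PR), with 1 passage a week, and no transgene and no added Wnt protein is named for these libraries. The groups differ in passage number, and the sources used here do not say whether the 2 libraries of a group came from separate cultures or mice, so that p-values measure the spread between libraries, which may be technical. The deposited unit is FPKM, the number of sequenced fragments of a gene scaled by its exon length and by the size of the library. Levels of different genes within a library can thus be set side by side. Libraries are less comparable, since their FPKM values did not sum to the same total.

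The label of the cells was held only in part by the markers. All 8 basal keratinocyte markers were measured, with a summed FPKM of 3873 and 3198 in 10p-HFSCs and of 12780 and 8196 in 48p-HFSCs. Of 7 markers of hair follicle stem cells, 5 stayed under an FPKM of 1 in every library, among them Cd34, the sorting marker, at 0.234 at most, and Lhx2, at 0.024 at most. Sox9 was called lower in 48p-HFSCs (45.6 and 44.2 FPKM against 20.2 and 8.31, log2 difference -1.71, limma adjusted p = 0.039), and Krt15 was not called. The cells were sorted for CD34 protein. Whether such low or zero FPKM values stand for absent transcripts or for failed estimates was not tested. By qRT-PCR, the study reports Lhx2 and Sox9 as increased at the last passage examined, and Cd34 and Krt15 as maintained. It also reports CD34 protein in most cells of both groups. The FPKM values showed no such increase for Lhx2, and those of Sox9 ran in the opposite direction. The cause of this conflict was not tested. Replicate 2 of 48p-HFSCs stood apart from the others. Its FPKM values summed to 1414953, against 581516 to 719012 in the other 3 libraries, and its relative depth, read from the steps between low FPKM values, was the lowest, at 46.7% of that of replicate 1 of 10p-HFSCs. For this reason values are given library by library.

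Values were compared on the log2(FPKM + 1) scale with limma, fitted on 11018 genes, those that reached an FPKM of 1 in 2 or more libraries. A gene was called at an adjusted p-value under 0.05 (Benjamini-Hochberg, over all genes tested) and a log2 difference of at least 1 in either direction. All 10 genes were among those tested, and 4 of them were called lower in 48p-HFSCs (Fzd1, Fzd2, Fzd7 and Lrp5), 1 was called higher (Fzd3) and 5 were not called (Fzd5, Fzd6, Lrp6, Wls and Porcn). Among all genes tested 9.15% were called lower and 10.8% higher. The median log2 difference was -0.38 over the 10 genes and -0.03 over all genes tested. The filter on low FPKM matters here, since Fzd1, Fzd2 and Lrp5 passed it only through the 10p-HFSC libraries and Fzd3 only through the 48p-HFSC libraries, so that these 4 had to differ in that direction to be tested at all. The 10 genes lie on 9 chromosomes of mm10. Fzd7, at chr1:59482424-59486955, Fzd2, at chr11:102604396-102608058, and Fzd1, at chr5:4753839-4758035, have transcripts of 1 exon. Fzd5 is at chr1:64730558-64737751, Fzd6 at chr15:39006034-39038188, Wls at chr3:159839672-159938664 and Porcn at chrX:8193848-8206525. Lrp5, at chr19:3584828-3686564, and Lrp6, at chr6:134446476-134566965, have 23 exons each. In bulk RNA, fewer cells that carry a transcript and less of it in each cell cannot be told apart.

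**Figure D1:**
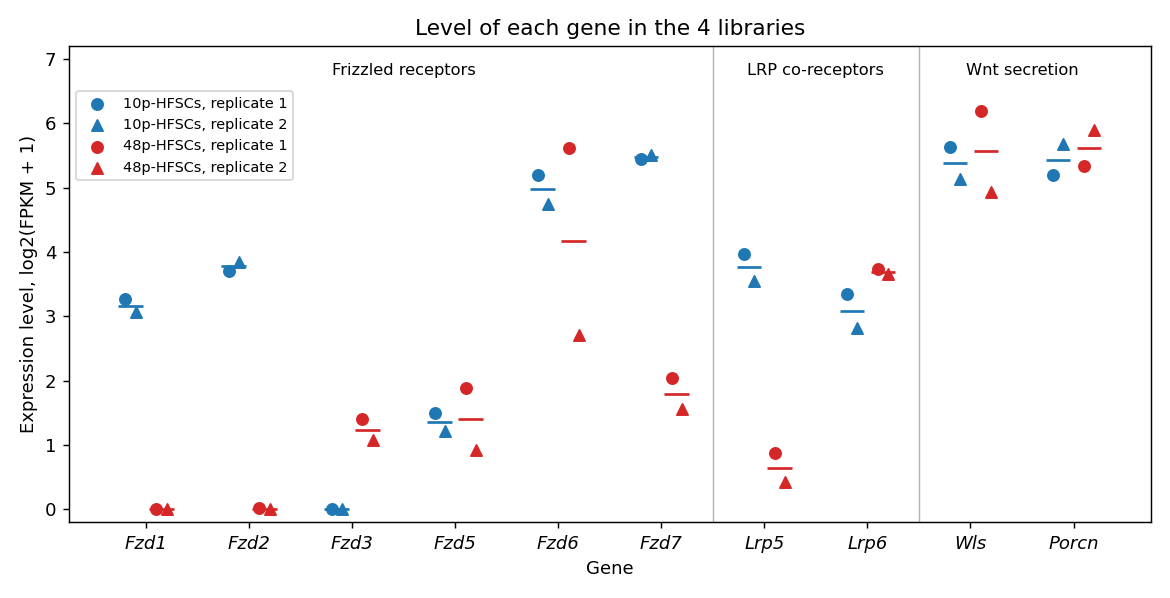
Expression level of each gene on the log2(FPKM + 1) scale (vertical axis), with a circle for replicate 1, a triangle for replicate 2 and a bar for the group mean, 10p-HFSCs in blue and 48p-HFSCs in red. Fzd1 and Fzd2 lay at or near 0 in both 48p-HFSC libraries, Fzd3 near 0 in both 10p-HFSC libraries, and Wls and Porcn overlapped between groups.

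Fzd1, Fzd2 and Fzd7 are close relatives within the Frizzled family and are receptors for Wnts of the beta-catenin branch. Fzd7 was the most abundant Frizzled transcript of 10p-HFSCs. Its FPKM was 42.4 and 44.6 in replicates 1 and 2 of 10p-HFSCs, the order used throughout, and fell to 3.12 and 1.93 in those of 48p-HFSCs. Both 48p-HFSC libraries were low and lay below both 10p-HFSC libraries, an order found for 34.3% of all genes tested. Its mean FPKM was 17.2-fold lower in 48p-HFSCs (43.5 ± 1.55 against 2.53 ± 0.84, SD, n = 2), and the difference on the log2 scale was -3.68 (standard error 0.29) with a limma adjusted p of 0.0012. Fzd2 had an FPKM of 12.1 and 13.3 in 10p-HFSCs. In 48p-HFSCs it was at 0.017 in replicate 1 and was listed at 0 in replicate 2, and the log2 difference came to -3.76 (standard error 0.25) with a limma adjusted p of 0.00093. Fzd1 was measured at 8.60 and 7.36 FPKM in 10p-HFSCs, and neither library of 48p-HFSCs listed it above 0 (limma adjusted p = 0.0012), which leaves no base for a fold change. Of 77 subunit genes of RNA polymerase II, the proteasome, respiratory complex I and the translation factor eIF3, 3 were listed at 0 in any library, all of them proteasome subunits of restricted expression (Psma8, Psmb8 and Psmb11). Yet Tram1, a widely expressed gene of protein translocation into the endoplasmic reticulum, had the same pattern as Fzd2, with 12.2 FPKM in both 10p-HFSC libraries and 0.043 and 0 in those of 48p-HFSCs. Whether a listed 0 stands for an absent transcript was not tested.

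Under all 12 other ways of processing, the log2 differences of Fzd1 and Fzd2 stayed negative. In the 8 that used all 4 libraries both genes kept their calls, with limma adjusted p-values of 0.011 at most. Without a 10p-HFSC library, the only spread within a group was that of the later passage. There Fzd1 was listed at 0 in both libraries and Fzd2 at 0.017 and 0. Calls of both genes in such fits rest on values at or near 0 and cannot be compared with those of Fzd7. Fzd7 lost its call when either 10p-HFSC library was left out, with adjusted p-values of 0.067 without replicate 1 and 0.065 without replicate 2 (fits in which 1.27% and 1.33% of all genes were called lower), while its log2 difference stayed between -4.14 and -3.43 over all 12. No window of read length in the transcripts of these 3 genes occurred in a transcript of another gene of GENCODE M21, on either strand.

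Markers of several cell types differed between the same groups. Of 9 fibroblast markers 2 were tested, and both were called lower in 48p-HFSCs, as were 9.15% of all genes tested. These were Vim, which encodes vimentin, and Col1a2, a chain of type I collagen. The summed FPKM of the list was 353 and 388 at passage 10 and 2.53 and 3.32 at passage 48. The remaining 7 markers summed to between 0.185 and 1.34 in each of the 4 libraries, and Dcn, Lum and Thy1 among them were listed at 0 throughout. All 8 basal keratinocyte markers were tested, and 2 were called higher (Itga6 and Itgb4), beside 10.8% of all genes tested. Krt5 and Krt14, which make up most of the sum of that list, were higher without overlap but not called, Trp63 and Dsp overlapped, and Epcam was lower in both 48p-HFSC libraries without a call. Of 5 leukocyte markers 2 were tested and both were called higher, Cd74 (0.335 and 0.201 FPKM against 61.2 and 102.2) and Lyz2. The pan-leukocyte gene Ptprc stayed at 0.071 FPKM at most, and Cd3e and Tyrobp were listed at 0 throughout. The summed FPKM of that list was 0.641 and 0.694 at passage 10, and 64.3 and 104.2 at passage 48. The 6 melanocyte markers summed to 1.31 and 1.43 at passage 10 against 3.6 and 11.9. Of these only Tyr was tested, and it was not called (0.095 and 0.286 FPKM against 1.33 and 9.48). Dct and Sox10 were listed at 0 throughout. The 4 endothelial markers summed to 2.54 and 2.3 against 1.37 and 0.292, and the only one tested, Pecam1, was not called. The part of these changes in the result for the receptors was not tested.

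The promoters of Fzd1 and Fzd7 are shown because both genes fell and both sequences were held in the RefSeq promoter table (GRCm38.p6), which had 4 of the 10 genes. They run 5′ to 3′ on the strand of the gene, around the start of the RefSeq transcript. Fzd1 is at chr5:4758167-4758466, minus strand, and Fzd7 at chr1:59481897-59482196, plus strand. Both stretches lie wholly upstream of the genes at the positions given above, which are from GENCODE M21, so the annotations place the starts differently. Capitals mark the letters of CTTTGA and CTTTGT, cores that TCF and LEF factors are known to bind, and of GGGCGG, a core of SP and KLF factors, on either strand.
Fzd1: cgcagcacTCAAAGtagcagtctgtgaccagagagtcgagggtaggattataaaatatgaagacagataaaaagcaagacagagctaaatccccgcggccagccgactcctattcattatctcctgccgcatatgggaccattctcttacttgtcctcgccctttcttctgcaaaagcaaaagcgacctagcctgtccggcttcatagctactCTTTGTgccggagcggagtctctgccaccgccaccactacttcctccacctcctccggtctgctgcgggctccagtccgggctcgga
Fzd7: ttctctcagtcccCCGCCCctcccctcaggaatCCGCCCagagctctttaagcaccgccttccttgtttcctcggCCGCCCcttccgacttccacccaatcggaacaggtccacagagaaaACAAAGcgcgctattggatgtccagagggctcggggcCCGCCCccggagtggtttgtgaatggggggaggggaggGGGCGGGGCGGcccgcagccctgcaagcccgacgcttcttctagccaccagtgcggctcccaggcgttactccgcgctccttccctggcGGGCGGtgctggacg
The Fzd1 promoter held CTTTGA once and CTTTGT once, and no GGGCGG. The Fzd7 promoter held CTTTGT once and GGGCGG 7 times, a pair of which share a base. Among 32851 promoters of the table, 16.0% held CTTTGA, 18.7% held CTTTGT and 35.7% held GGGCGG, counted on both strands. Neither promoter held CACCTG, an E-box core of Snail and Zeb factors (20.2% of promoters), or TGACTCA, the AP-1 core (5.2% of promoters). Such matches describe the letters only.

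Fzd3, a receptor known for planar cell polarity and axon guidance, was the only one of the 10 genes called higher. The 10p-HFSC libraries held almost none of it (FPKM 0.0078 and 0.0054), against 1.65 and 1.10 after 48 passages. The filter, which Fzd3 passed only through the 48p-HFSC libraries, left no room for the groups to overlap. The 48p-HFSC level was low, at a rank within the lowest 10% of the genes tested in both libraries. The log2 difference was 1.23 with a standard error of 0.23 (limma adjusted p = 0.018), a scale on which the pseudocount of 1 hides most of the change of so rare a transcript. The call was lost when either 10p-HFSC library was left out, with adjusted p-values of 0.15 and 0.14 for replicates 1 and 2, in fits that called 0.318% and 0.327% of all genes higher. Its gene lies on chromosome 14 (65192449 to 65262463 of mm10, minus strand), where the median log2 difference of 365 genes tested was 0.44, and the part of this shift in its result was not tested.

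Fzd6, also a polarity receptor and known in mouse skin for the orientation of hairs, was not called. Its FPKM was 35.7 and 25.9 at passage 10, and 48.2 and 5.53 at passage 48. The 10p-HFSC libraries lay between the 2 libraries of 48p-HFSCs. Its log2 difference of -0.81 had a 95% interval from -3.0 to 1.38 (limma adjusted p = 0.54), the widest of the 10 genes. Without replicate 1 of 48p-HFSCs it was called lower, as were 17.0% of all genes in that fit (log2 difference -2.27, adjusted p = 0.017), and without replicate 2 the difference turned to 0.65 (adjusted p = 0.19), so that no direction can be given for Fzd6. Krt15, a keratin of the follicle bulge, split these libraries in the same order, at 424.8 FPKM in the first 48p-HFSC library and 18.8 in the second, a comparison made after the values were seen. Fzd5, the other receptor without a call, was low throughout, with 1.84 and 1.33 FPKM at passage 10 and 2.68 and 0.90 at passage 48. Its groups overlapped, and its log2 difference was 0.04 with a 95% interval from -0.87 to 0.96 (limma adjusted p = 0.95). In GENCODE M21, 17.8% of the exon bases of Fzd5 are shared with an exon of Gm38058 on the other strand, so reads there could be ambiguous if the strand was not used in counting.

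**Figure D2:**
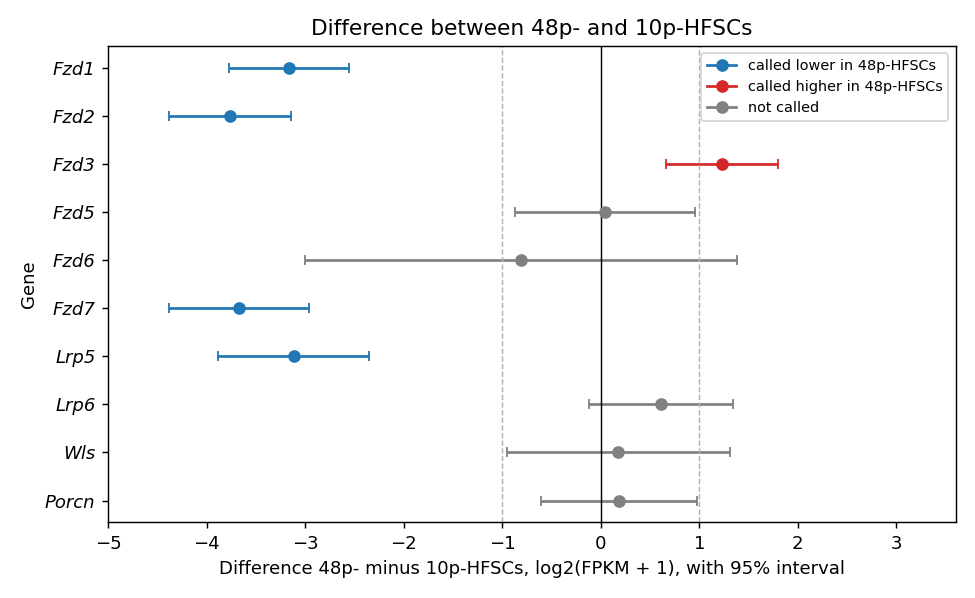
Difference between group means of 48p- and 10p-HFSCs on the log2(FPKM + 1) scale (horizontal axis) for each gene, with the 95% interval from limma. Fzd1, Fzd2, Fzd7 and Lrp5 lie at -3.12 or below, Fzd3 lies at 1.23, and the intervals of the other 5 genes include 0.

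The make-up of the Frizzled transcripts was also followed as a share within each library, a measure that the scaling between libraries cannot move. The FPKM of all 10 mouse Frizzled genes summed to 100.9 and 92.6 in 10p-HFSCs and to 55.8 and 9.47 in 48p-HFSCs. Fzd4 reached 0.295 FPKM at its highest, Fzd9 stayed below it, and Fzd8 and Fzd10 were listed at 0 throughout. Fzd1, Fzd2 and Fzd7 together made up 62.5% and 70.5% of the sum at passage 10, but 5.63% and 20.4% at passage 48. The share of Fzd6 went from 35.3% and 28.0% at passage 10 to 86.3% and 58.4% at passage 48. Thus Fzd7 led the Frizzled transcripts in both 10p-HFSC libraries and Fzd6 in both 48p-HFSC libraries. Fzd3 went from under 0.01% to 2.96% and 11.6%, and Fzd5 went from 1.82% and 1.44% to 4.80% and 9.54%. None of these shares overlapped between groups, which for 2 libraries against 2 gives p = 0.333 in the exact permutation test (two-sided), the smallest value that it can give. Shares within a library add up to the whole, so a fall of some raises the others. The FPKM of Fzd5 and Fzd6 overlapped between groups, so their larger shares do not show a rise of these genes. Fzd1, Fzd2 and Fzd3 passed the filter only through the group where they were higher, so the direction of their shares adds no support. Without overlap, leaving out a library could not change these directions.

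**Figure D3:**
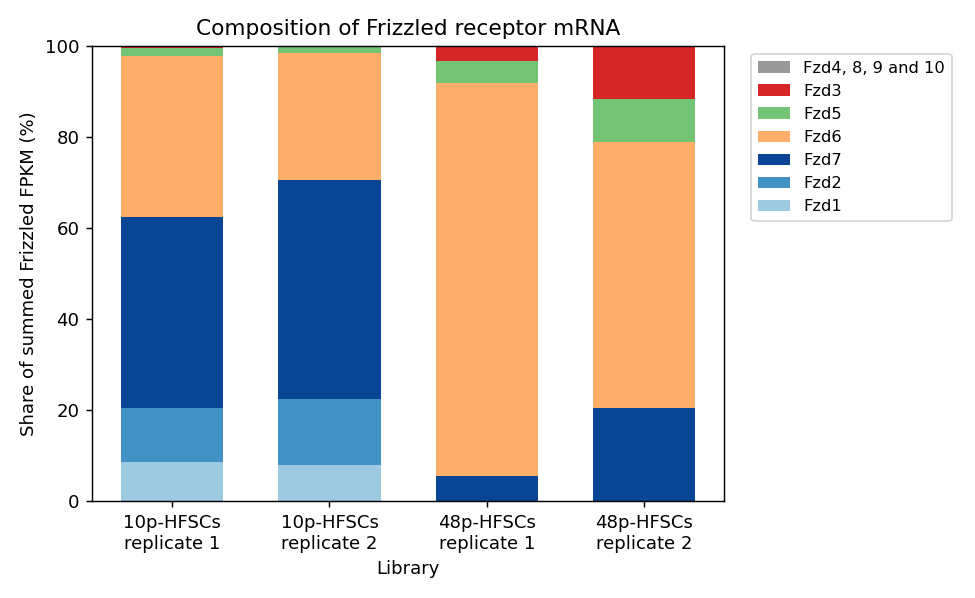
Share of each Frizzled gene in the summed Frizzled FPKM of a library (vertical axis, percent), with 1 stacked bar for each library. The blue parts (Fzd1, Fzd2 and Fzd7) fill 62.5% and 70.5% of the 10p-HFSC bars and 5.63% and 20.4% of the 48p-HFSC bars, where Fzd6 (orange) is the largest part.

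The co-receptors Lrp5 and Lrp6 are close relatives that both pair with a Frizzled when a Wnt binds, and they did not move together. Lrp5 went from 14.7 and 10.7 FPKM at passage 10 to 0.831 and 0.337 at passage 48. It passed the filter only through the 10p-HFSC libraries, so that its groups could not overlap. Its mean was 21.8-fold lower in 48p-HFSCs (12.7 ± 2.81 against 0.58 ± 0.35, SD, n = 2), which is -3.12 on the log2 scale with a standard error of 0.31 (limma adjusted p = 0.0023). It lost its call when either 10p-HFSC library was left out, with adjusted p-values of 0.064 without replicate 1 and 0.056 without replicate 2. Lrp6 stood at 9.13 and 6.04 FPKM at passage 10 and at 12.3 and 11.6 at passage 48. The groups did not overlap, with 48p-HFSCs higher, as was found for 31.7% of all genes tested (and the opposite order for 34.3%), but the log2 difference of 0.61 was not called (95% interval -0.12 to 1.35, limma adjusted p = 0.19). A call of Lrp6 as higher came only when length and GC effects of the transcripts were taken out of each library (log2 difference 1.01, adjusted p = 0.028, and 0.014 together with the replicate number in the fit), where 11.6% and 13.8% of all genes were called higher. Over all its alternatives the adjusted p of Lrp6 ran from 0.014 to 0.94.

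Lrp5 made up 61.7% and 64.0% of the FPKM of both co-receptors at passage 10 and 6.34% and 2.83% at passage 48 (exact permutation test, two-sided, p = 0.333, the smallest possible). Since Lrp5 passed the filter only through the 10p-HFSC libraries, the direction of this share adds no support for its fall. The summed FPKM of both was 23.9 and 16.8 at passage 10 and 13.1 and 11.9 at passage 48.

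The secretion genes stayed abundant in all libraries. Wls was at 48.7 and 34.0 FPKM at passage 10, and the libraries of passage 48 lay on either side, at 72.0 and 29.6. Its groups overlapped, and its log2 difference of 0.18 had a 95% interval from -0.95 to 1.31 (limma adjusted p = 0.80). For Porcn the FPKM was 35.4 and 50.1 at passage 10 against 39.4 and 58.5 at passage 48. Its groups overlapped too, with a log2 difference of 0.18 and a 95% interval from -0.61 to 0.97 (limma adjusted p = 0.70). Both intervals leave room for a rise or a fall, and a p-value above the threshold does not show that the levels were equal. In replicate 2 of each group Porcn was higher and Wls lower than in replicate 1.

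By mean FPKM, the order in 10p-HFSCs was Fzd7 (43.5), Porcn (42.8), Wls (41.4), Fzd6 (30.8), Lrp5 (12.7), Fzd2 (12.7), Fzd1 (7.98), Lrp6 (7.58), Fzd5 (1.58) and Fzd3 (0.0066). The libraries of Fzd7, Porcn and Wls overlapped, those of Fzd6 overlapped with Porcn and Wls but not with Fzd7, and overlap was also seen between Lrp5 and Fzd2 and between Fzd1 and Lrp6. In 48p-HFSCs the order was Wls (50.8), Porcn (49.0), Fzd6 (26.8), Lrp6 (11.9), Fzd7 (2.53), Fzd5 (1.79), Fzd3 (1.38), Lrp5 (0.58) and Fzd2 (0.0086), with Fzd1 listed at 0. Here Wls, Porcn and Fzd6 overlapped, and Fzd6 also spanned both libraries of Lrp6. Fzd5 overlapped with Fzd7 and with Fzd3, which did not overlap with each other. Lrp6 lay below Lrp5 in both 10p-HFSC libraries and above it in both 48p-HFSC libraries, and in replicate 2 of 48p-HFSCs it was above every Frizzled receptor, Fzd6 included.

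**Figure D4:**
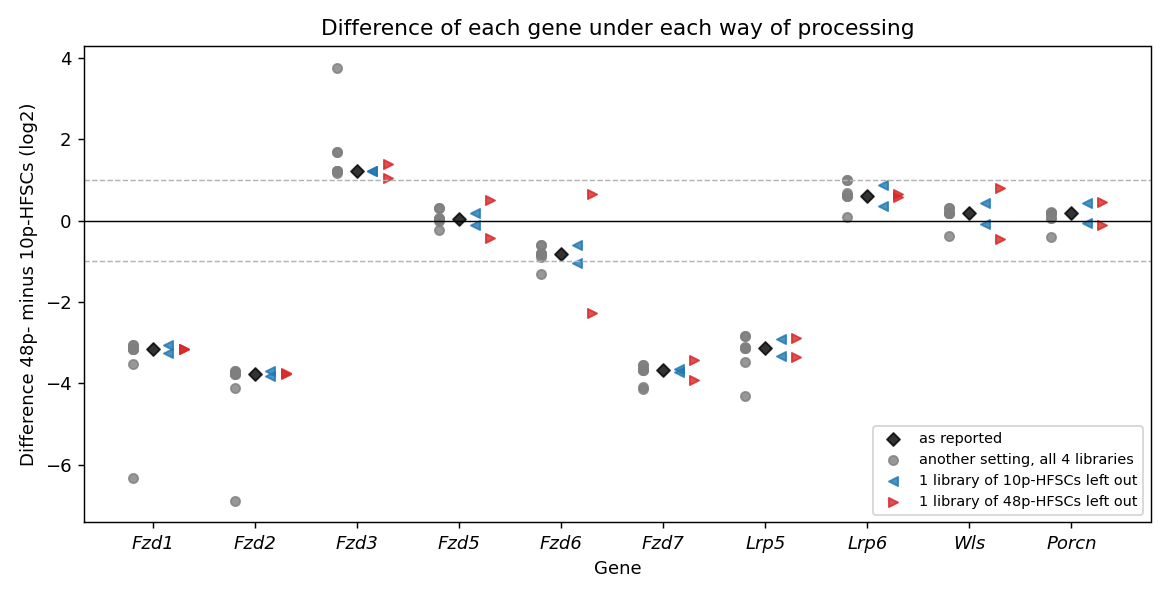
Difference of each gene between 48p- and 10p-HFSCs (vertical axis, log2) as reported (black), under other settings with all 4 libraries (gray), and with 1 library of 10p-HFSCs (blue) or of 48p-HFSCs (red) left out, with dashed lines at -1 and 1. Fzd1, Fzd2, Fzd7 and Lrp5 stay at -2.82 or below, while Fzd6 runs from -2.27 to 0.65 and Fzd5, Wls and Porcn fall on both sides of 0.

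These levels were set beside the ligands. Of the 19 Wnt ligand genes, 5 were tested, and each was called higher at passage 48, as were 10.8% of all genes tested. Wnt7a had 0 and 0.023 FPKM at passage 10 and 20.3 and 28.9 at passage 48. It passed the filter only through the 48p-HFSC libraries, so it had to be higher to be tested at all. The log2 differences of Wnt7a, Wnt4 and Wnt9a were 4.64, 2.57 and 1.75 (limma adjusted p = 0.00092, 0.0067 and 0.0088). Those of Wnt7b and Wnt10a were 1.18 and 1.16. All 5 lost their calls when either 10p-HFSC library was left out, where 0.318% and 0.327% of all genes were called higher, with the log2 difference of Wnt7a at 4.62 and 4.66 (adjusted p = 0.052 and 0.051). The calls of Wnt9a, Wnt7b and Wnt10a were also lost when each library was rescaled to the same summed FPKM, which left 5.63% of all genes called higher. The FPKM of the 19 ligands summed to 49.6 and 62.1 in 10p-HFSCs and to 197.1 and 250.5 in 48p-HFSCs. At passage 48 the largest parts were Wnt4 (72.6 and 127.0) and Wnt10a (60.3 and 48.4), both above Wnt7a in each library. Relative to the summed Frizzled FPKM of the same library, the ligand sum was 0.491 and 0.671 at passage 10 and 3.53 and 26.5 at passage 48. Relative to Porcn it was 1.40 and 1.24 at passage 10 and 5.0 and 4.28 at passage 48, and relative to Wls 1.02 and 1.83 against 2.74 and 8.47. None of the 3 ratios overlapped between groups, and they were chosen after the values had been seen.

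Outside the 10 genes, 86 genes of the pathway were listed by role, and 28 of them were tested, of which 6 were called higher, 6 lower and 16 not called. Among all genes tested 10.8% were called higher and 9.15% lower. The median log2 difference of the 28 genes was -0.17. Besides the 5 ligands, the gene called higher was Dvl1, a Dishevelled protein that relays the signal of all Frizzled receptors, from 14.9 and 18.4 FPKM at passage 10 to 42.1 and 57.0 at passage 48 (log2 difference 1.51, limma adjusted p = 0.017). Its call was lost under 3 of 12 alternatives, namely rescaling to the same summed FPKM (adjusted p = 0.21) and leaving out replicate 1 (0.28) or replicate 2 (0.19) of 10p-HFSCs. Dvl2 and Dvl3 were tested and not called.

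**Figure D5:**
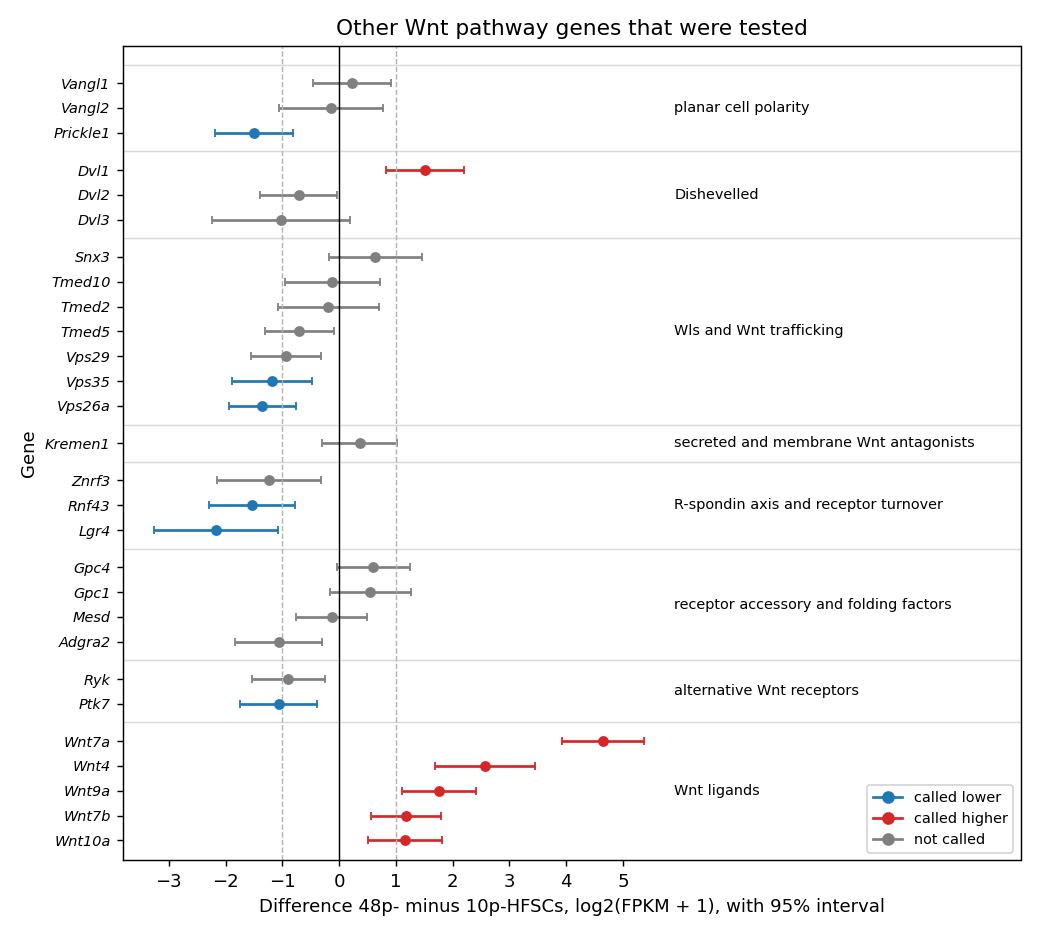
Difference between 48p- and 10p-HFSCs on the log2(FPKM + 1) scale (horizontal axis) with 95% intervals for the 28 tested pathway genes outside the 10, grouped by role. The 5 ligands and Dvl1 were called higher, and Ptk7, Lgr4, Rnf43, Vps26a, Vps35 and Prickle1 were called lower.

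Of 9 genes of the R-spondin axis and of receptor turnover 3 were tested and 2 were called lower, beside 9.15% of all genes tested. Lgr4, a receptor for R-spondins, fell from 39.9 and 32.9 FPKM to 11.7 and 4.40 (log2 difference -2.17, limma adjusted p = 0.023). Rnf43, a ubiquitin ligase that removes Frizzled receptors from the surface, fell from 6.73 and 6.15 FPKM to 2.15 and 1.10 (log2 difference -1.53, limma adjusted p = 0.022). Its relative Znrf3 was not called (log2 difference -1.24, limma adjusted p = 0.067), and none of Rspo1 to Rspo4, Lgr5 and Lgr6 was tested.

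In 4 other groups of the list, 4 of 16 tested genes were called lower and none higher, beside 9.15% called lower and 10.8% higher among all genes tested. Of 7 trafficking genes, Vps26a (log2 difference -1.36, limma adjusted p = 0.015) and Vps35 (-1.18, limma adjusted p = 0.036), both of the retromer complex that returns Wntless from endosomes, were called lower, and 5 were not called. Of the alternative Wnt receptors Ptk7 was called lower (-1.07, limma adjusted p = 0.045) and Ryk was not (-0.90, limma adjusted p = 0.062), while Ror1, Ror2 and Musk were not tested. Of the planar cell polarity genes Prickle1 was called lower, from 10.5 and 9.04 FPKM to 3.24 and 2.43 (limma adjusted p = 0.018), and Vangl1 and Vangl2 were not called. None of 4 tested genes for receptor folding and accessory factors was called, including the LRP chaperone Mesd (matched by its older symbol Mesdc2). The calls of Lgr4, Rnf43, Vps35, Ptk7 and Prickle1 were lost without the filter on low FPKM, where 3.82% of all genes were called lower, that of Ptk7 under 7 of 12 alternatives in all, and all 6 calls of lower genes were lost when either 10p-HFSC library was left out.

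Apart from Kremen1, the antagonists and the feedback target genes chosen for the list were listed at or near 0 FPKM in both groups. Whether such values stand for absent transcripts was not tested. Of 17 antagonists only Kremen1, a receptor for Dickkopf proteins, was tested (log2 difference 0.36, limma adjusted p = 0.37), and the other 16 did not pass 0.270 FPKM. Among these, Wif1 and Dkk1 were listed at 0 in all 4 libraries. The study examined both by qRT-PCR in 10p- and 48p-HFSCs and reports no increase at passage 48. The 6 genes listed as feedback genes of the beta-catenin branch (Axin2, Nkd1, Nkd2, Sp5, Lef1 and Tcf7) stayed at or under 0.216 FPKM. Of these 6, Axin2 and Sp5 were listed at 0 in all 4 libraries. The 6 genes passed no filter, and no difference was detectable for them at these levels. Rnf43 and Znrf3, described above with receptor turnover, were measured and are not among these 6.

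The genes most like 3 of the 10 were sought by the Euclidean distance of their log2(FPKM + 1) values over the 4 libraries. The nearest to Wls, the gene with the highest mean, were Depdc7 (distance 0.42), Nfe2l2 (0.44) and Yap1 (0.59). The nearest to Fzd3 were 1700016K19Rik (0.09), Paqr7 (0.13) and Hspa1a (0.13), and those to Fzd2, the gene with the largest decrease on this scale, were Gm1673 (0.06), Tram1 (0.12) and Snx25 (0.21). Fzd7 fell more than Fzd2 after rescaling to the same summed FPKM (-4.14 against -4.12) and without replicate 1 of 48p-HFSCs (-3.92 against -3.77). With 4 libraries such a distance describes level and group difference only.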

How the data were processed

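The authors mapped single-end reads of stranded poly(A) libraries to the mouse genome mm10 with TopHat and Bowtie2, and deposited 1 FPKM value per gene symbol and library, computed with Cufflinks. The submitters' processing notes name TopHat2 2.1.1, Bowtie2 2.2.8, SAMtools 0.1.18 and Cuffdiff 2.2.1, and the paper gives other versions of Bowtie2 and SAMtools. The annotation and the strand setting are not given in the sources used here. FPKM values are not counts, so no count test was run.

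Libraries were grouped by the passage number of their titles. FPKM values were taken to log2 after adding 1 and were fitted with limma 3.58.1 in R 4.3.3 (eBayes with a variance trend) on all 11018 genes that passed the filter. Shares within a library were compared by exact permutation. Other computations used Python 3.11.15, pandas and scipy. Gene positions and the length and GC content of transcripts were taken from GENCODE M21 (GRCm38, the same assembly as mm10), and promoters from the RefSeq table. Simulated sets held 11018 genes, of which 200 were changed. The fit found 84.1% of the genes changed by 3 and 6.9% of those changed by 1.5 on the log2 scale. False calls made up 6.38% of the total. In these sets a moderate change could thus go uncalled. In the measured data 1189 genes were called higher and 1008 lower, many more than the 200 simulated. Adjusted p-values depend on how many genes change, so these rates cannot be carried over to the measured data.

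The 10 genes, the lists and the tests were chosen with earlier results of these data known. Named outside the 10 genes were the called genes of each list with the largest changes, up to 3 in each direction, the 5 tested ligands, the other Frizzled genes, cell markers and the nearest genes. Krt15, Znrf3, Adgra2, Dvl3, Ryk and the untested or uncalled list members were named after their values were seen. The alternatives were adding 0.1 in place of 1, testing without the filter, rescaling to the same summed FPKM (TPM), median-of-ratios scaling, a constant variance prior, the replicate number as a block, correction for transcript length and GC content with and without the block, and leaving out each library.

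Since FPKM values hold no read totals, only the relative depth could be had, from the most common ratio of FPKM values under 0.3 between libraries, and intervals for counting error are left out.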

Additional observations from a re-analysis of the deposited data

How the results depend on the processing

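Over 12 alternatives, the log2 differences of Fzd1, Fzd2, Fzd3, Fzd7, Lrp5 and Lrp6 kept their sign. Rescaling to the same summed FPKM (TPM) moved the median log2 difference of all genes from -0.03 to -0.55, and on that scale those of Fzd5, Wls and Porcn turned to -0.24, -0.39 and -0.39, all above that median. It left 2 other Wnt pathway genes called higher, against 6, and 620 of all genes, against 1189. Without the filter on low FPKM, 1 other Wnt pathway gene was called lower, against 6, and 637 of all genes, against 1008. With the correction for length and GC content, 2 of the 10 genes were called higher in place of 1, also with the block, and the added gene was Lrp6. With 1 library left out, which leaves a group with a lone library assumed to vary like the other group, 0 to 1 of the 10 genes were called higher and 2 to 5 lower. For the other Wnt pathway genes the counts ran from 0 to 6 higher and from 0 to 9 lower, and for all genes from 35 to 1936 higher and from 140 to 1875 lower, the lowest counts being those without a 10p-HFSC library. The differences then ran from -0.43 to 0.52 for Fzd5, from -2.27 to 0.65 for Fzd6, from -0.45 to 0.81 for Wls and from -0.094 to 0.46 for Porcn. The cause was not tested.

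The replicate numbers are shared between groups but not stated to mark a common batch. Libraries of the same number deviated from the mean of their group with a Pearson correlation of 0.408 over the genes tested, which for only 2 pairs does not show pairing. In the fit that held the replicate number as a block, 1 of the 10 genes was called higher and 4 lower, the same counts as without it, 6 other Wnt pathway genes were called higher and 9 lower, with Znrf3 (adjusted p = 0.0071), Adgra2 (0.0080) and Dvl3 (0.017) added to the latter, and 1613 of all genes were called higher and 1497 lower.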
